A study of Homo sapiens with 6 samples.

Results

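The genes described here, 5 in all, belong to G protein-coupled signalling and comprise 4 receptors (GPR15, ADGRF1, ADORA2B and P2RY11) and 1 regulator (RGS2). They were chosen by their changes between the auxin and DMSO libraries of this series, out of 36415 human genes with a listed transcript, 15765 of which had enough counts to be tested. All 5 were among the genes tested. Because the same contrast chose them, their differences between the groups are given as a description, with no test.

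The libraries came from HCT116 cells, an established colorectal carcinoma line, in which MCM2 carries a mini auxin-inducible degron (mAID), a tag that lets auxin trigger destruction of the protein. MCM2 belongs to the MCM helicase, which is loaded onto replication origins in G1. The cells received either auxin (3-indoleacetic acid, 500 µM) or its solvent DMSO, with 3 libraries of polyadenylated RNA in each group, and per the study's methods they were released from a thymidine arrest and sorted in G1. Every library carries the degron, so an effect of auxin itself and an effect of MCM2 loss cannot be told apart, and although the study calls the replicates independent, the labels do not say whether they were separate cultures, so p-values cover only the spread among them.

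G protein-coupled receptors span the cell membrane and, when a ligand binds, promote loading of GTP onto a heterotrimeric G protein. Gs raises cyclic AMP through adenylyl cyclase, Gi lowers it, and Gq activates phospholipase C beta, which releases calcium. RGS proteins end the signal by speeding up GTP hydrolysis on the alpha subunit. In the gut, GPR15 guides T cells to the colon, and ADORA2B on epithelial cells senses adenosine that is formed from released ATP.

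Libraries held 52.5 to 68.4 M estimated counts. MCM2 mRNA lay between 347 and 356 CPM (counts scaled to a common library size) in auxin and between 343 and 389 CPM in DMSO (log2 fold change -0.06, edgeR adjusted p = 0.557), which does not check the labels, since the degron acts on the protein. Of 12 epithelial markers 10 passed the filter, led by KRT8, and CDX1 was at 0 in every library. Their summed TPM, a level that is also scaled by transcript length, was 3746 to 4033 in auxin and 3844 to 4334 in DMSO, with 3 called higher and 1 lower. In the whole fit 4.32% of the tested genes were called higher in auxin and 2.46% lower (6.78% in either direction, adjusted p under 0.1). Of the calls 681 were higher and 388 lower, against 281 and 86 with effective lengths as offsets and 366 and 389 with the trend in length and GC removed.

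The promoters of the 3 receptors with higher levels in auxin are shown first, because these genes moved in the same direction and start from very different sequence. Each runs from 250 bases before the RefSeq start to 30 bases into the transcript (GRCh38.p14). Capitals mark matches, on either strand, to GCGTG, the core of the element bound by the aryl hydrocarbon receptor, and to TATAAA, the core of the TATA box.
GPR15, chr3:98531728-98532007, plus strand: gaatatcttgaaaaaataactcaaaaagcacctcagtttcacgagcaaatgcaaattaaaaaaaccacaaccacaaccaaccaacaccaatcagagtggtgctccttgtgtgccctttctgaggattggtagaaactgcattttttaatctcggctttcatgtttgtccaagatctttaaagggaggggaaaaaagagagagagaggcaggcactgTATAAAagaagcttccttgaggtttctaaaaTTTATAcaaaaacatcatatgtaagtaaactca
ADGRF1, chr6:47042303-47042582, minus strand: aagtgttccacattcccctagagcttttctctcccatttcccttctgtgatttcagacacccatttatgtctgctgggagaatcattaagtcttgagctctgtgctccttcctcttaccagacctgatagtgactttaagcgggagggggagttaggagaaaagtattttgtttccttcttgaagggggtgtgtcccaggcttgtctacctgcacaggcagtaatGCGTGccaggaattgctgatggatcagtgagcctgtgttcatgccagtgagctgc
ADORA2B, chr17:15944880-15945159, plus strand: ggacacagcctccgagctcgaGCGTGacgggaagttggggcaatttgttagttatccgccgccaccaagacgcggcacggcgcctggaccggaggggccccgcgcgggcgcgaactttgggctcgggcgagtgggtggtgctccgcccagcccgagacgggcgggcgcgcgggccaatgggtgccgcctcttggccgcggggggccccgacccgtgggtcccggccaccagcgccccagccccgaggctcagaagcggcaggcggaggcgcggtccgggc

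Over the full 300-base windows the promoter of GPR15 was AT-rich, with 38% GC and 2 CpG sites. That of ADGRF1 had 48.3% GC and 2 CpG sites, and that of ADORA2B 75.7% GC and 41 CpG sites, against medians of 58.7% and 14 over 35116 RefSeq promoters. The letters TATAAA began 34 bases before the start of GPR15, were found in no other of the 5 promoters, and occurred on either strand in 11.5% of all promoters. GCGTG was found in 4 of the 5 (all but GPR15), beginning 25 bases before the start of ADGRF1 and 229 bases before that of ADORA2B, and in 36.5% of all promoters. The cAMP response element TGACGTCA was in none of the 5 and in 1.85% of all. A match is a string of letters and not a bound site.

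GPR15 (ENSG00000154165.5, chr3:98531978-98534681 of hg38, plus strand) encodes a chemoattractant receptor of T cells that also serves immunodeficiency viruses as a coreceptor. It has a single annotated transcript with 1 exon of 2704 bases, so its reads needed no division between isoforms. It took 197, 222 and 219 counts in the auxin libraries and 56, 52 and 56 in the DMSO libraries. Scaled, these were 3.23, 3.42 and 3.49 CPM with auxin and 0.862, 1.04 and 0.923 CPM with DMSO. The 3 auxin libraries lay close together and well above every DMSO library, the nearest pair being 3.09-fold apart. Means were 3.38 ± 0.136 and 0.943 ± 0.093 CPM (mean ± SD of 3 libraries), a 3.60-fold higher level in auxin (log2 fold change 1.85, SE 0.13). In a low-expressed gene this remained a small amount of RNA, 1.70 TPM in auxin and 0.454 TPM in DMSO.

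The gene of its peptide ligand, GPR15LG, which gut epithelium is known to make, was at 0 counts in 5 of the 6 libraries and at 1 count in auxin replicate 1. Leukocyte markers, listed because GPR15 is best known from T cells, summed to 10.1 to 11.3 TPM in auxin and 9.35 to 9.92 TPM in DMSO, mostly from CORO1A (6.48 TPM). CD2 and LCP2 were at 0 in every library, 9 of the 17 markers were tested and 0 were called by edgeR, DESeq2 or limma-voom (2 had an unadjusted p under 0.05). Fibroblast and endothelial markers summed to 13.8 to 15.4 TPM in auxin and 12.2 to 14.4 TPM in DMSO. All libraries came from the same cultured line, so neither sum is read as a share of other cell types. The relation of either sum to the level of GPR15 was not tested. In bulk RNA, GPR15 RNA in more cells and more GPR15 RNA per cell cannot be told apart. ENSG00000285635, which overlaps GPR15 on the other strand, took between 0 and 4.44 counts in a library, so little could be shared with it.

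ADGRF1 (ENSG00000153292.16, chr6:46997708-47042350, minus strand), also called GPR110, is an adhesion receptor for the docosahexaenoic acid amide synaptamide and couples to Gs. Its gene sum was 8.74, 6.96 and 5.21 CPM with auxin and 1.14, 1.42 and 0.690 CPM with DMSO. The auxin libraries spread more widely than for any other of the 5 genes (coefficient of variation 25.3%), yet the lowest of them was 3.67-fold above the highest DMSO library. The mean was 6.97 ± 1.77 CPM with auxin and 1.08 ± 0.368 CPM with DMSO (mean ± SD of 3 libraries). With a log2 fold change of 2.70 (SE 0.27, 6.48-fold) it had rank 7 from the highest among the 15765 tested genes, where GPR15 had rank 16.

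**Figure D1:**
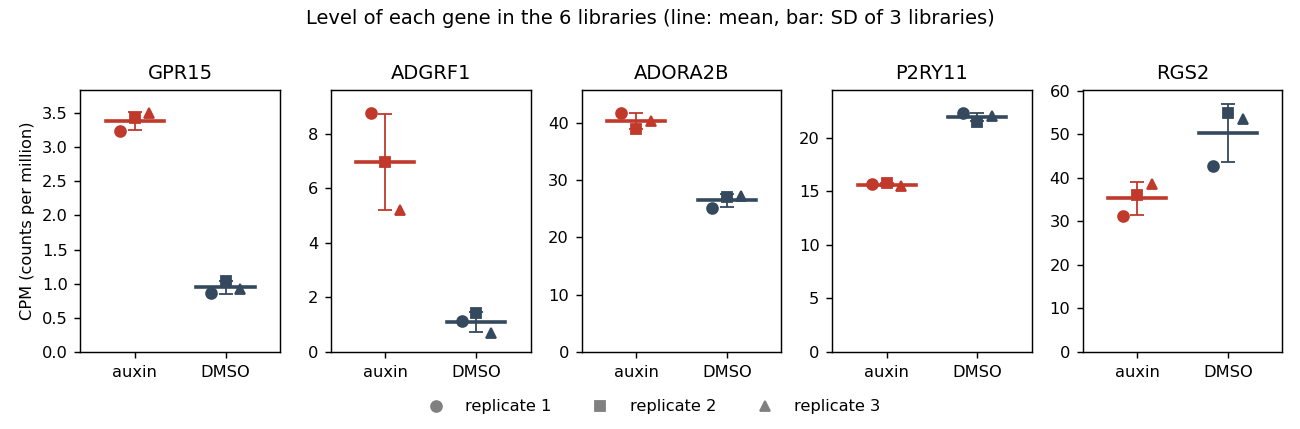
Level of GPR15, ADGRF1, ADORA2B, P2RY11 and RGS2 in CPM, with 1 marker per library, the mean as a line and the SD of 3 libraries as a bar, each panel with its own axis from 0. GPR15, ADGRF1 and ADORA2B lie higher in all 3 auxin libraries, P2RY11 and RGS2 lie lower, and the nearest libraries of the 2 groups are only 1.11-fold apart for RGS2.

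Of ADGRF1, 13 transcripts were listed and 10 reached 1 count in a library. ADGRF1-203, a coding transcript of 15 exons with the longest coding region (2730 bases), was estimated at 3.21, 2.71 and 1.59 CPM in auxin and at 0.196, 0.297 and 0.0733 CPM in DMSO. ADGRF1-201, coding with 9 exons, was estimated at 1.70, 2.14 and 1.31 CPM in auxin and at 0.350, 0.478 and 0.0198 CPM in DMSO. ADGRF1-202, the short coding form with 8 exons, stood at 0.490 ± 0.0429 CPM with auxin and 0.105 ± 0.0413 CPM with DMSO (mean ± SD of 3 libraries). All 3 coding forms were therefore higher in every auxin library than in any DMSO library.

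ADGRF1-205, a spliced form of 13 exons with no coding region defined, showed the widest contrast, with 2.44, 0.785 and 1.30 CPM with auxin and 0.0162, 0 and 0.0539 CPM with DMSO. The retained-intron forms differed far less. ADGRF1-206 was at 0.478, 0.332 and 0.480 CPM with auxin and 0.351, 0.365 and 0.157 CPM with DMSO, and ADGRF1-204 at 0.342, 0.361 and 0.0378 CPM with auxin and 0.0970, 0.106 and 0.276 CPM with DMSO, and for both the groups overlapped. As a share of the gene's counts the 5 retained-intron forms made up 9.92%, 9.95% and 10.7% in auxin and 39.5%, 35.2% and 62.8% in DMSO. Coding forms made up 61.7%, 77.4% and 64.4% in auxin and 57.4%, 64.8% and 22.6% in DMSO, where DMSO replicate 3 stood apart with only 41.9 counts for the whole gene. These shares are kallisto's division of reads between overlapping transcripts, and with so few DMSO counts they are imprecise.

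**Figure D2:**
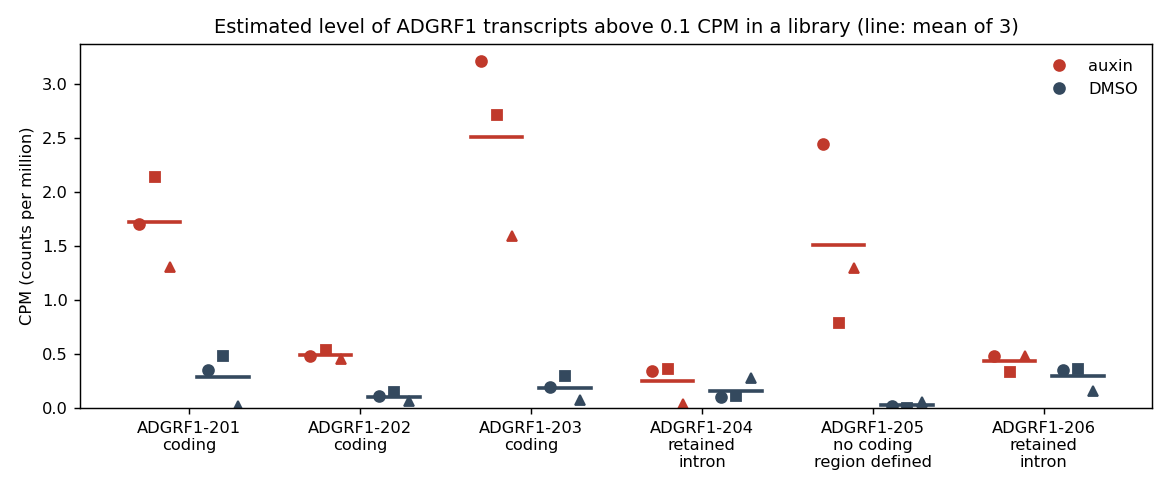
Estimated CPM of the 6 ADGRF1 transcripts that passed 0.1 CPM in at least 1 library, with 1 marker per library (circle, square and triangle for replicates 1, 2 and 3) and the mean of 3 as a line. The coding forms 201, 202 and 203 and the spliced form 205 are higher in all auxin libraries, whereas auxin and DMSO values of the retained-intron forms 204 and 206 overlap.

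ADORA2B (ENSG00000170425.4, chr17:15945130-15975746, plus strand) is the low-affinity adenosine receptor, which couples to Gs and, in some cells, to Gq. It was measured at 41.6, 38.9 and 40.4 CPM with auxin and at 25.2, 27.1 and 27.1 CPM with DMSO. Both groups were tight and did not overlap. Means of 40.3 ± 1.36 and 26.5 ± 1.12 CPM (mean ± SD of 3 libraries) gave a level 1.52-fold higher in auxin (log2 fold change 0.61, SE 0.05). Between 94.8% and 97.1% of its counts in each library went to the coding transcript ADORA2B-201 and the rest to a retained-intron form.

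Per length, ADORA2B was the most abundant of the 3 adenosine receptors tested in either group, at 37.7 TPM in auxin and 23.7 TPM in DMSO. ADORA2A, the high-affinity Gs-coupled relative, had 6.35 and 5.98 TPM, and ADORA1, which couples to Gi, 3.86 and 3.66 TPM. Neither was called by edgeR (log2 fold change 0.09, SE 0.07, adjusted p = 0.503 for ADORA2A and 0.06, SE 0.09, adjusted p = 0.761 for ADORA1), 0 reached an unadjusted p of 0.05, and 0 were called by DESeq2 or limma-voom. ADORA2A lies within the annotated read-through SPECC1L-ADORA2A.

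P2RY11 (ENSG00000244165.2, chr19:10111693-10115372, plus strand) is a receptor for extracellular ATP that couples to both Gs and Gq. Its levels were 15.6, 15.7 and 15.5 CPM with auxin and 22.2, 21.5 and 22.0 CPM with DMSO. The spread within groups was the smallest of the 5 genes (coefficient of variation 0.859% in auxin and 1.80% in DMSO), and every auxin library lay below every DMSO library. The means of 15.6 ± 0.134 and 21.9 ± 0.394 CPM (mean ± SD of 3 libraries) correspond to a level 1.40-fold higher in DMSO (log2 fold change -0.49, SE 0.05). Both of its transcripts lay lower in auxin, P2RY11-201 at 11.05 ± 0.376 against 16.1 ± 0.191 CPM and P2RY11-202, which has no coding region defined, at 4.55 ± 0.330 against 5.81 ± 0.225 CPM (auxin against DMSO, mean ± SD of 3 libraries).

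The gene starts within the annotated body of PPAN, a ribosome biogenesis factor, and both are joined in the read-through PPAN-P2RY11, which was counted apart. PPAN-P2RY11 was estimated at 12.05, 12.7 and 11.4 CPM in auxin and at 12.5, 17.0 and 16.9 CPM in DMSO, so DMSO replicate 1 lay within the range of the auxin libraries. With a log2 fold change of -0.36 it missed the threshold (SE 0.11, adjusted p = 0.123), but it was called lower by DESeq2, with the replicate block and without DMSO replicate 1. PPAN itself was at 83.1, 83.2 and 85.9 CPM in auxin and at 92.8, 90.2 and 94.6 CPM in DMSO. It was called lower by edgeR with a small difference (log2 fold change -0.14, SE 0.04, adjusted p = 0.0959), and the call was lost in 10 of 14 alternatives, each left-out library among them.

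Reads of the shared exons are divided by kallisto between P2RY11 and its read-through. Of their joint counts, 43.5%, 44.8% and 42.5% went to PPAN-P2RY11 in auxin and 36.0%, 44.1% and 43.4% in DMSO. Added together, both came to 27.7, 28.4 and 26.9 CPM with auxin and 34.8, 38.5 and 38.9 CPM with DMSO (log2 ratio of the means -0.43), again without overlap. EIF3G, a translation initiation factor gene that overlaps P2RY11 on the other strand, was not called (log2 fold change -0.13, SE 0.04, adjusted p = 0.124).

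**Figure D3:**
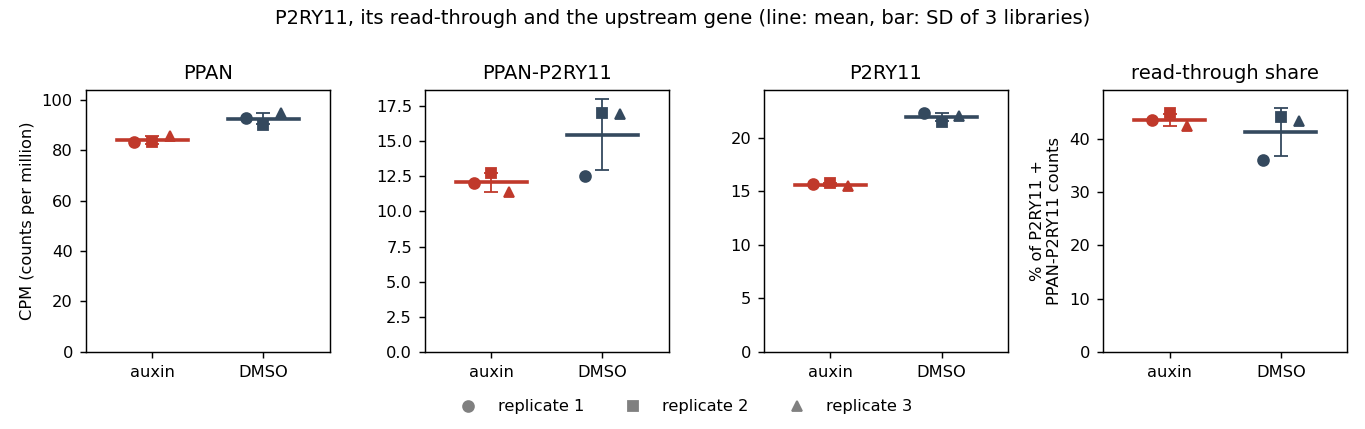
CPM of PPAN, of the read-through PPAN-P2RY11 and of P2RY11, and the read-through's percentage of the joint P2RY11 and PPAN-P2RY11 counts, with 1 marker per library, the mean as a line and the SD of 3 libraries as a bar. P2RY11 separates the groups with little spread, PPAN separates them by a small margin, and PPAN-P2RY11 does not separate them because DMSO replicate 1 lies at 12.5 CPM.

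Among the 5 P2Y receptors tested P2RY11 had the highest level per length, 23.8 TPM in auxin and 30.7 TPM in DMSO. P2RY2, a receptor for ATP and UTP, followed with 2.65 and 2.34 TPM and was not called (log2 fold change 0.14, SE 0.09, adjusted p = 0.404). P2RY1, the ADP receptor, was at 0.740 and 0.652 TPM (log2 fold change 0.12, SE 0.11, adjusted p = 0.563), and P2RY8, a receptor best known from lymphocytes, at 0.355 and 0.287 TPM (log2 fold change 0.26, SE 0.28, adjusted p = 0.646). All 4 relatives tested had log2 fold changes above 0, and 0 were called by edgeR, DESeq2 or limma-voom, with 0 at an unadjusted p under 0.05.

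RGS2 (ENSG00000116741.8, chr1:192809039-192812275, plus strand) encodes a GTPase-activating protein with a preference for the alpha subunit of Gq, and is known as a rapidly induced gene. It stood at 31.1, 36.1 and 38.7 CPM with auxin and at 42.8, 54.8 and 53.6 CPM with DMSO. The lowest DMSO library was only 1.11-fold above the highest auxin library, and replicate 1 was the lowest library of each group. Means were 35.3 ± 3.82 and 50.4 ± 6.64 CPM (mean ± SD of 3 libraries), a level 1.43-fold higher in DMSO (log2 fold change -0.51, SE 0.11). The coding transcript RGS2-201 held between 96.8% and 98.3% of the counts in each library.

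RGS2 was second in level per length among the 13 RGS genes tested, at 39.7 TPM in auxin and 54.4 TPM in DMSO, behind RGS10 with 143 and 149 TPM. The log2 fold changes of RGS10 (-0.11, SE 0.05, adjusted p = 0.284), RGS19 (-0.01, SE 0.05, adjusted p = 0.944) and RGS12 (0.21, SE 0.09, adjusted p = 0.224) missed the threshold. Only RGS14, which acts on Gi alpha subunits, was called among the 12 relatives. It averaged 8.56 ± 0.188 CPM with auxin against 7.18 ± 0.120 CPM with DMSO (mean ± SD of 3, log2 fold change 0.25, SE 0.07, adjusted p = 0.0866), a call lost in 9 of 14 alternatives, each left-out library among them.

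The groups of all 5 genes were free of overlap in CPM, as they were for 26.7% of the tested genes, and nothing is read from this, since the contrast chose the genes. Their percentiles by mean TPM among the tested genes were 21.8 for GPR15, 27.8 for ADGRF1, 70.9 for P2RY11, 73.1 for ADORA2B and 80.8 for RGS2. The 2 genes with the highest fold changes were thus the 2 with the lowest levels.

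Most other G protein-coupled receptors were not called by edgeR. Of 157 tested, 14 were higher in auxin and 0 lower (8.92% called, against 6.78% of all tested genes), and 119 had log2 fold changes above 0, against 8432 of all 15765, with a median of 0.15 against 0.01. At an unadjusted p under 0.05 there were 43 higher and 2 lower. The share of all tested genes at that level was not counted, here or for the lists below, so nothing is read from such counts. DESeq2 called 16 higher and 0 lower of the 78 to which it gave an adjusted p, against 13.5% of all genes with one, and limma-voom 13 and 0 of 157, against 6.07%. The count rested on the libraries kept, falling to 4 or 6 when auxin replicate 2 or 3 was left out and to 5 or 6 when DMSO replicate 2 or 3 was left out, and it was 7 with effective lengths as offsets. VIPR1 and FZD7 were the only 2 of the 14 called in every alternative. The single lists below hold few called genes each, so their counts are not compared with the 6.78% of all tested genes.

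VIPR1, the Gs-coupled receptor of vasoactive intestinal peptide, rose from 4.31, 4.34 and 4.27 CPM in DMSO to 6.48, 7.15 and 7.53 CPM in auxin (log2 fold change 0.71, SE 0.09, adjusted p = 0.00268). FZD7, a Wnt receptor, rose from 18.4 ± 0.778 to 23.0 ± 0.759 CPM (mean ± SD of 3, log2 fold change 0.32, SE 0.06, adjusted p = 0.0202). FZD4, also a Wnt receptor, was the weakest call (log2 fold change 0.32, SE 0.09, adjusted p = 0.0954), lost in 8 of 14 alternatives. Both Wnt receptors came from the 11 tested Frizzled and LGR genes.

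Among the 18 adhesion relatives of ADGRF1, 1 was called. ADGRG1, a receptor for collagen III also called GPR56, stood at 23.4, 23.1 and 24.7 CPM with auxin and 17.4, 18.5 and 18.6 CPM with DMSO (log2 fold change 0.38, SE 0.06, adjusted p = 0.00728), a call lost with effective lengths as offsets. The adhesion receptors with the highest levels per length, ADGRE5, ADGRA3 and ADGRG6, had log2 fold changes of 0.05, 0.12 and 0.21 (adjusted p = 0.666, 0.143 and 0.344). ADGRF4 and ADGRF5, the neighbours of ADGRF1 in its subfamily, were below 0.1 CPM in both groups and were not tested. ADGRF3, also of this subfamily and named after its values were seen, was at 0.431 CPM with auxin and 0.357 CPM with DMSO. It was tested and not called (log2 fold change 0.25, SE 0.28, adjusted p = 0.649). By TPM ADGRF1 was 16 of 19 in DMSO and 10 of 19 in auxin.

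Of the 13 relatives of GPR15 only CXCR4, the receptor of CXCL12, was called, at 1.20, 1.28 and 1.15 CPM with auxin and 0.662, 0.723 and 0.742 CPM with DMSO (log2 fold change 0.77, SE 0.16, adjusted p = 0.0366). The call was lost on leaving out replicate 2 of either group or DMSO replicate 3, and DESeq2 gave no adjusted p. LTB4R and LTB4R2, receptors of leukotriene B4 whose genes overlap, were at 7.89 and 4.66 CPM with auxin and 7.90 and 4.69 CPM with DMSO (adjusted p = 0.999 and 0.985). The complement receptor C5AR1 was not called (log2 fold change 0.31, SE 0.13, adjusted p = 0.196). GPR15 moved from 6 of 14 by TPM in DMSO to 4 of 14 in auxin.

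Of 25 lipid and protease receptors 4 were called. PTAFR, the receptor of platelet-activating factor, was at 7.73, 9.84 and 12.2 CPM with auxin and 4.80, 5.68 and 6.53 CPM with DMSO (log2 fold change 0.81, SE 0.18, adjusted p = 0.0577). LPAR5, a receptor of lysophosphatidic acid, differed by 0.56 on the log2 scale (SE 0.10, adjusted p = 0.0213) and S1PR2, a receptor of sphingosine 1-phosphate, by 0.34 (SE 0.07, adjusted p = 0.0410). F2RL1, the protease-activated receptor PAR2 and the most abundant of these with 323 ± 18.8 CPM with auxin and 281 ± 13.5 CPM with DMSO (mean ± SD of 3 libraries), had a small change (log2 fold change 0.21, SE 0.05, adjusted p = 0.0693). LPAR5 was lost in 1 of 14 alternatives, PTAFR and S1PR2 in 5 and F2RL1 in 7. S1PR2, at 9.72 CPM with auxin and 7.70 CPM with DMSO, overlaps DNMT1 on the same strand. DNMT1 was at 340 CPM with auxin and 353 CPM with DMSO, and the division of reads between them was not tested.

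Of the 35 amine and peptide receptors 4 were called. They were ADRA2C, an alpha-2 adrenergic receptor (log2 fold change 0.33, adjusted p = 0.0433), HRH1, the Gq-coupled histamine receptor (0.25, adjusted p = 0.0604), EDNRA, an endothelin receptor (0.65, adjusted p = 0.0357), and CHRM1, a Gq-coupled muscarinic receptor (0.88, adjusted p = 0.0829). CHRM1 was near the detection limit, at 0.647 ± 0.0355 CPM with auxin and 0.345 ± 0.0962 CPM with DMSO (mean ± SD of 3 libraries). GPRC5C, an orphan, was the 1 call among 12 class C receptors (log2 fold change 0.28, adjusted p = 0.0516). Of 32 other orphan receptors 0 were called by edgeR, 0 by limma-voom and 1 by DESeq2, with 4 at an unadjusted p under 0.05. Each of these 5 calls was lost in 2 or more alternatives.

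**Figure D4:**
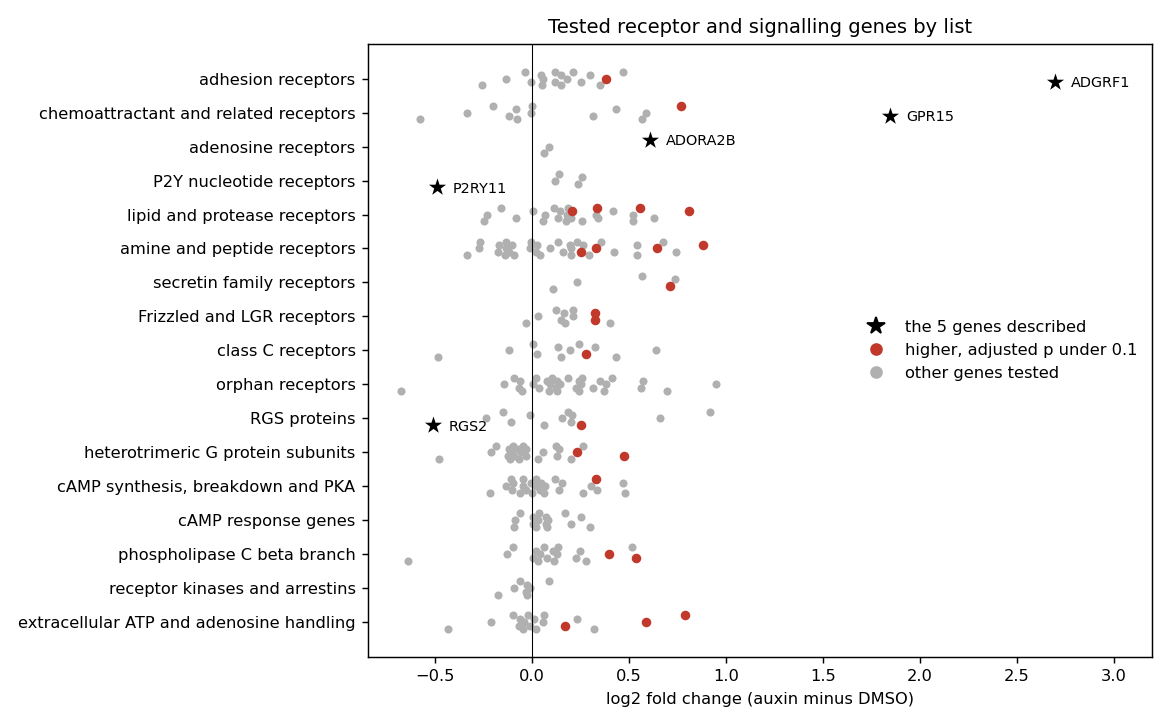
Log2 fold change (auxin minus DMSO, horizontal axis) of every tested gene of 17 receptor and signalling lists, 1 point per gene, with the 5 genes described as stars and called genes in red. All 23 called genes lie to the right of 0, and ADGRF1 (2.70) and GPR15 (1.85) lie beyond every other receptor or signalling gene, for which the contrast chose them.

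Downstream of the receptors, 9 of 123 tested signalling genes were higher and 0 lower by edgeR. This was 7.32% called, close to the 6.78% of all tested genes, with a median log2 fold change of 0.03. At an unadjusted p under 0.05, 19 were higher and 7 lower, again without a share over all genes. DESeq2 called 7 higher and 4 lower of 97 with an adjusted p, against 13.5% of all genes with one. For limma-voom the calls were 9 and 0 of 123, against 6.07%. Without auxin replicate 2 or DMSO replicate 2 only 1 remained higher, without auxin replicate 3 or DMSO replicate 3 there were 2, without auxin replicate 1 there were 6, and the count was 2 with effective lengths as offsets and 5 with the trend in length and GC removed. Without DMSO replicate 1 there were 8 higher and 3 lower.

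Of 24 tested G protein subunits, 2 were called higher and 0 lower by edgeR, while 9 had log2 fold changes above 0 (median -0.05). At an unadjusted p under 0.05 by edgeR 3 were higher and 4 lower, and DESeq2 called 2 higher and 3 lower. GNAI1, an alpha subunit of Gi, was the 1 signalling gene called in every alternative. It was at 94.7, 81.0 and 80.5 CPM with auxin and 64.3, 58.9 and 60.8 CPM with DMSO (log2 fold change 0.48, SE 0.07, adjusted p = 0.00585). GNAQ, the alpha subunit of Gq on which RGS2 acts, rose by less (log2 fold change 0.23, SE 0.05, adjusted p = 0.0421), a call lost in 5 of 14 alternatives. In the phospholipase C beta branch, 2 of 19 were called, the calcium release channel ITPR1 (0.40, adjusted p = 0.0481) and the kinase PRKCE (0.54, adjusted p = 0.0927).

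Of 26 genes of cyclic AMP synthesis, breakdown and protein kinase A, the adenylyl cyclase ADCY9 was the 1 called (log2 fold change 0.33, SE 0.09, adjusted p = 0.0760). The 16 cAMP response genes, among them NR4A1, FOS and PER1, had 0 calls by edgeR, DESeq2 or limma-voom and 0 at an unadjusted p under 0.05, with log2 fold changes between -0.09 and 0.30. Of 8 receptor kinases and arrestins 0 were called by the 3 tools, with 1 at an unadjusted p under 0.05. ADCY9, ITPR1 and PRKCE were each lost in 5 or 6 of 14 alternatives.

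Genes of extracellular ATP and adenosine handling, with an ATP-gated channel among them, showed 3 calls among 18. PANX1, a channel that releases ATP, rose slightly from 37.4 ± 0.791 to 42.0 ± 0.992 CPM (mean ± SD of 3, log2 fold change 0.17, SE 0.05, adjusted p = 0.0803). The ATP-gated channel P2RX7 (0.59, adjusted p = 0.0578) and the ectonucleotidase ENTPD8 (0.79, adjusted p = 0.0829) were called at low levels, 1.89 and 0.694 CPM in auxin. NT5E, which forms adenosine outside cells and is named here after its values were seen, was at 130 CPM with auxin and 134 CPM with DMSO (log2 fold change -0.05, adjusted p = 0.665). PANX1, P2RX7 and ENTPD8 were lost in 7 of 14, 5 of 13 and 7 of 12 alternatives.

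The chromosomal neighbourhood was compared within 250 kb of each gene, a distance set after the values were seen. Of 4 tested genes near GPR15, 3 were called higher, near P2RY11 1 was higher and 2 lower of 20, and 0 were called among the 1, 8 and 2 near ADGRF1, ADORA2B and RGS2 (edgeR). At an unadjusted p under 0.05 there were 3 near GPR15, 7 near P2RY11 and 1 near RGS2. DESeq2, which gave no adjusted p for RPL38P4, called 2 near GPR15, 5 near P2RY11 and 1 near RGS2, and limma-voom called 3, 2 and 0. So few genes allow no comparison with the 6.78% called overall.

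RPL38P4, an annotated pseudogene of the ribosomal protein gene RPL38, lies 6704 bases from GPR15 on the other strand. It took 64, 77 and 83 counts in auxin and 14, 19 and 19 in DMSO, or 1.19 ± 0.137 against 0.304 ± 0.0836 CPM (mean ± SD of 3 libraries), a 3.95-fold difference (log2 fold change 1.98, SE 0.23, adjusted p = 0.00180) called in all 13 alternatives that gave an adjusted p. DESeq2 gave none, with a log2 fold change of 1.98. Its counts were whole numbers in every library, which shows no sign of reads divided with RPL38. As a processed copy it resembles RPL38, and whether reads of RPL38 were assigned to it was not tested. CPOX, an enzyme of haem synthesis that starts 61.7 kb from the GPR15 start, was at 252, 235 and 224 CPM with auxin and 187, 179 and 185 CPM with DMSO (log2 fold change 0.37, SE 0.05, adjusted p = 0.00373), called in every alternative. CLDND1, a claudin-like membrane protein gene 8912 bases away, differed less (log2 fold change 0.21, SE 0.06, adjusted p = 0.0854), a call lost in 6 of 14 alternatives. ST3GAL6, a sialyltransferase gene, was not called (0.17, SE 0.09, adjusted p = 0.298).

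Near P2RY11 the calls were PPAN and MRPL4, a mitochondrial ribosomal protein gene, both lower (MRPL4 log2 fold change -0.14, SE 0.04, adjusted p = 0.0920, lost in 8 of 14 alternatives), and the lipid receptor S1PR2, higher.

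Genes whose log2 CPM followed each of the 5 most closely over the 6 libraries were CILK1, MEGF6 and SSH1 for GPR15, USP6NL, CREB3L2 and GOLGB1 for ADGRF1, SLC3A2, MYO9A and GPAT3 for ADORA2B, ZPR1, ENSG00000286001 and POLR1F for P2RY11, and NACA, RPSA and COX7C for RGS2. Pearson's r lay between 0.993 and 0.999. With 6 libraries in 2 groups the step between the groups sets most of r, and between 181 and 262 of about 12752 genes exceeded 0.95 for each of the 5. The companions of RGS2 shared its low replicate 1 in both groups.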

How the data were processed

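Poly(A)-selected RNA of 3 auxin and 3 DMSO samples was sequenced in paired ends with a strand-marking kit. The study's methods name kallisto for assigning reads to human hg38 transcripts. Release and strand setting were not given in the sources used here. The estimated counts deposited by the authors are per transcript, not normalised and need not be whole. Transcript identifiers without version were looked up in GENCODE release 44, where 178869 of 199240 matched, holding 96.2% to 96.3% of the counts of a library. Counts were summed per gene and rounded for the test, and TPM was computed from counts and deposited effective lengths.

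The test across genes was edgeR 4.0.16, quasi-likelihood (R 4.3.3, robust, TMM, minimum count 10 and total 15, treatment as the only term), and called at a Benjamini-Hochberg adjusted p under 0.1, the study's threshold. Adjusted p denotes this test. CPM is counts over the TMM-scaled library size, and SE is the size of the log2 fold change over the square root of the F statistic. DESeq2 1.42.0 and limma-voom 3.58.1 were alternatives. The fit was checked on counts simulated from its own estimates of the spread between libraries. These held no replicate effect, no trend in length or GC and no division of reads, so the check does not cover those.

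The members and gene lists were chosen with earlier results of these data known. Genes named besides the members were PPAN and PPAN-P2RY11, all called genes of a list (6 at most), in the 5 lists closest to the members the 3 with the highest mean TPM, and the 3 genes closest in pattern to each member (mean of at least 1 CPM). Genes near the members were added after their values were seen. Promoters are from RefSeq, and all 5 members matched.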

Additional observations from a re-analysis of the deposited data

How the results depend on the processing

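No member changed direction in any alternative, and nothing is read from this, since the contrast chose the genes. With effective lengths as offsets the log2 fold change of P2RY11 was -0.43, with the trend in length and GC removed (added after earlier results were known) -0.43, and with PPAN-P2RY11 added -0.43. On log2(TPM + 1), which understates low genes, values were 0.89 for GPR15 and 1.50 for ADGRF1. P2RY11, not a low gene at 23.8 TPM in auxin and 30.7 TPM in DMSO, had -0.35 on this scale. Leaving out 1 library gave 1.77 to 1.91 for GPR15, 2.45 to 2.91 for ADGRF1, 0.56 to 0.63 for ADORA2B, -0.51 to -0.48 for P2RY11 and -0.63 to -0.43 for RGS2.

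Receptors called higher numbered 7 with effective lengths as offsets and 4 to 16 with 1 library left out. Signalling genes called higher numbered 2 with effective lengths as offsets, 5 with the trend removed and 1 to 8 with 1 library left out. Signalling genes called lower numbered 1 with RLE size factors, 1 with the stricter filter of at least 1 CPM, 1 with effective lengths as offsets, 4 with DESeq2, 2 with the trend removed and 0 to 3 with 1 library left out. Over all genes, calls numbered 1069, against 367 with effective lengths as offsets, 1638 with DESeq2 and 183 to 1566 with 1 library left out. None of the 23 called list genes reversed. The cause of these shifts was not tested.

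The labels do not say whether the replicate numbers pair the samples, and the main fit did not pair them. Same-numbered libraries deviated together with correlations of 0.390, 0.0799 and 0.215 over 12753 genes, all above 0. Differently numbered ones had correlations between -0.2885 and 0.117, the highest being auxin replicate 2 with DMSO replicate 3. Whether replicates share an effect was not tested. The fit with a replicate block called 43 of 157 receptors higher and 3 lower, and 24 of 123 signalling genes higher and 13 lower. Over all 15765 tested genes it called 4867, with 2559 higher and 2308 lower, against 1069 in the main fit. The rise in calls was thus not particular to these lists. With the block the SE of RGS2 was 0.04 against 0.11 in the main fit, and that of GPR15 was 0.13 in both.

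Depth limits GPR15 and ADGRF1 in DMSO, where each library held under 75 counts of either.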
